A study of Mus musculus with 4 samples.

Results

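The 10 genes described here encode the receptor Fn14, its ligand TWEAK, and the signalling proteins and transcription factors of the noncanonical NF-kB pathway together with 2 genes tied mainly to the canonical branch. They were taken by symbol from a list of 10 names, all of which were among the 24054 gene symbols of the expression table, and the list was chosen by name with the levels and fold changes of this same contrast already known, so the members' values are a description, and nothing is read from how many of them pass the rule for called genes. The soleus, a slow hindlimb muscle, was measured by RNA sequencing in females of the strain C57BL/10ScSn-DMD mdx/J (*mdx*), whose dystrophin gene is mutated. Monthly femoral vein infusions began at 8 weeks of age, and muscles were taken at the 12-month endpoint. The mCDC group (2 samples) received mouse cardiosphere-derived cells, stromal cells grown from the heart of a single dystrophin-sufficient C57BL/10ScSn/J donor, and the vehicle group (2 samples) received the carrier medium (IMDM) alone. All 4 muscles were therefore dystrophic, and no healthy muscle was compared. The labels do not say that the 2 samples of a group came from separate mice, so the p-values below measure only the spread between these samples.

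TWEAK, encoded by Tnfsf12, is a cytokine of the TNF superfamily, and Fn14, encoded by Tnfrsf12a, is its small receptor, which is scarce in healthy muscle and is induced by injury, denervation and growth factors. In unstimulated cells TRAF3, TRAF2 and the cIAP ubiquitin ligases hold the kinase NIK, the product of Map3k14, at a low level by marking it for degradation. When a receptor such as Fn14 draws these adaptors away, NIK accumulates, p100 (the product of Nfkb2) is processed to p52, and p52 enters the nucleus with RelB. The canonical branch instead frees RelA and p50 from the inhibitor IkBa, encoded by Nfkbia, and TRAF6 is an adaptor of that branch. Much of this regulation acts on proteins, which RNA counts do not measure.

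Nfkb2, Relb, Birc3 and Nfkbia are textbook NF-kB target genes, so the stretch next to each gene's start was searched for a kappaB motif. The motif, GGG and TCC separated by any 4 bases, was found on either strand in 19.2% of all 32851 RefSeq promoter entries (GRCm38.p6, 250 bases before to 50 bases after a gene's start). Of the 10 members, 8 had a promoter entry and 4 of these held a match, Nfkb2, Nfkbia, Traf3 and Traf2. Counted by entry, as the background is, 6 of the 10 entries of these genes held one, because Nfkb2 has 3 entries. Tnfsf12 and Relb had no entry. The 30-base windows below show every match in capitals, each read 5′ to 3′ on the gene's strand. Nfkb2 windows 1 and 2, with matches 38 and 11 bases before the first of its 3 RefSeq starts, lie at chr19:46304689-46304718 and chr19:46304716-46304745 (plus strand). Windows 3 and 4, 236 bases before and 10 bases after the next RefSeq start, lie at chr19:46305449-46305478 and chr19:46305695-46305724, and window 5, 110 bases before the last, at chr19:46305810-46305839. The GENCODE gene model of Nfkb2 starts upstream of all 5 windows, so they lie within that model. The Nfkbia match, 29 bases before the start, lies in chr12:55492657-55492686 (minus strand) and the Traf3 match, 10 bases before the start, in chr12:111166350-111166379 (plus strand). The Traf2 match, 31 bases after the start, lies in chr2:25546891-25546920 (minus strand).
Nfkb2, window 1: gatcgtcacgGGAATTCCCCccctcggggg
Nfkb2, window 2: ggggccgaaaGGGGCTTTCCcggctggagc
Nfkb2, window 3: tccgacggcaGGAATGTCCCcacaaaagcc
Nfkb2, window 4: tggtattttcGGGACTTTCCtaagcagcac
Nfkb2, window 5: ggaggagatcGGACCCTCCCccagatctga
Nfkbia: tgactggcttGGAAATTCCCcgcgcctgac
Traf3: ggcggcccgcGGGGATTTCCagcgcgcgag
Traf2: cgcggcagcggGGGTGTTTCCcggcgagcg

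Tnfrsf12a, the member with the widest difference between groups, held neither this motif nor the AP-1 motif TGANTCA, which 7.81% of all promoter entries and 1 of the 10 member entries, of Nfkb2, held. Its upstream stretch at chr17:23677469-23677699 (minus strand) is shown for comparison, in lower case throughout because it has no match.
Tnfrsf12a: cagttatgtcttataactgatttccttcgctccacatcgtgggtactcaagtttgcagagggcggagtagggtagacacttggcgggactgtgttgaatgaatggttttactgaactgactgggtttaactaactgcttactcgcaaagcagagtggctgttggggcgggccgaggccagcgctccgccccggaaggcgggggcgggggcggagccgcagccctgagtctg
A match or its absence describes only these letters in this window.

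The expected counts of the 4 libraries summed to between 22481391 and 27187425. Levels are given as CPM, the expected count of a gene per 1e6 counts of its library, after edgeR's TMM scaling, a trimmed mean over genes. Acta1 and Myh7, the skeletal actin and the slow myosin heavy chain, were among the 8 of 8 muscle markers found. The summed level of these markers was 120230 to 134470 CPM in every library. Of these symbols, 13652 passed a filter on low counts and were tested with edgeR's quasi-likelihood method, and a gene is called below where it differed by more than 1.5-fold at an unadjusted p below 0.05. That rule called 172 genes higher and 374 lower in mCDC muscles, 4.0% of the genes tested, and with library totals in place of TMM scaling it called 121 higher and 508 lower. The 546 calls became 941 with mCDC replicate 1 left out, 348 with mCDC replicate 2 left out, 1107 with vehicle replicate 1 left out and 566 with vehicle replicate 2 left out, or 6.73%, 2.49%, 7.92% and 4.1% of the genes tested in those fits. With all 4 libraries, the quasi-likelihood test gave no gene an adjusted p under 0.05, the smallest being 0.200. It gave 947 genes an unadjusted p under 0.05. DESeq2 gave 48 genes an adjusted p under 0.05, and edgeR's likelihood ratio test 66. All 10 members passed the filter.

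The receptor was more abundant in both mCDC muscles than in both vehicle muscles, whereas its ligand was not. Tnfrsf12a had 201 CPM in mCDC replicate 1 and 414 in mCDC replicate 2, against 94.9 and 88.6 in vehicle replicates 1 and 2. The vehicle muscles lay close together and mCDC replicate 2 held about as much again as mCDC replicate 1, so the groups did not overlap but the mCDC pair was wide. The mean was 308 ± 151 CPM (SD, n = 2) in mCDC and 91.7 ± 4.5 CPM (SD, n = 2) in vehicle muscles, a ratio of 3.35. The log2 fold change of 1.74 (SE 0.30) was the 19th highest of the 13652 genes tested. It fell to 1.13 when mCDC replicate 2 was left out and rose to 2.18 when mCDC replicate 1 was. The gene lies at chr17:23675445-23677468 (GRCm38, minus strand), and none of the 31-base words of its transcripts occurred in transcripts of another gene.

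Tnfsf12 (chr11:69686250-69695849, minus strand), the ligand, was measured at 6.32 and 4.71 CPM in mCDC replicates 1 and 2 and at 4.88 and 10.2 CPM in vehicle replicates 1 and 2. The 2 groups overlapped, and vehicle replicate 2 stood above the other 3 libraries. The means of 5.51 ± 1.15 and 7.55 ± 3.78 CPM (SD, n = 2) gave a log2 fold change of -0.45 (SE 0.35), which was 0.18 without vehicle replicate 2 and -0.88 without vehicle replicate 1. Of the gene's 31-base words, 47.4% are shared with the read-through gene Tnfsfm13, which joins Tnfsf12 to its neighbour Tnfsf13, so reads of these genes cannot be fully separated. The sum of Tnfsf12 and Tnfsf13 came to 7.93 and 5.10 CPM with mCDCs and to 6.27 and 12.3 CPM with vehicle, which overlapped in the same way. In bulk muscle, fewer cells of a type and less RNA per cell cannot be told apart. Vehicle replicate 2 was also the library with the most endothelial marker RNA, 187 CPM summed over 5 markers against 85.6 to 106 CPM in the other 3, and with the most fibroblast marker RNA, 476 CPM over 6 markers against 253 to 286 CPM. The part of these cells in the level of Tnfsf12 was not tested.

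**Figure D1:**
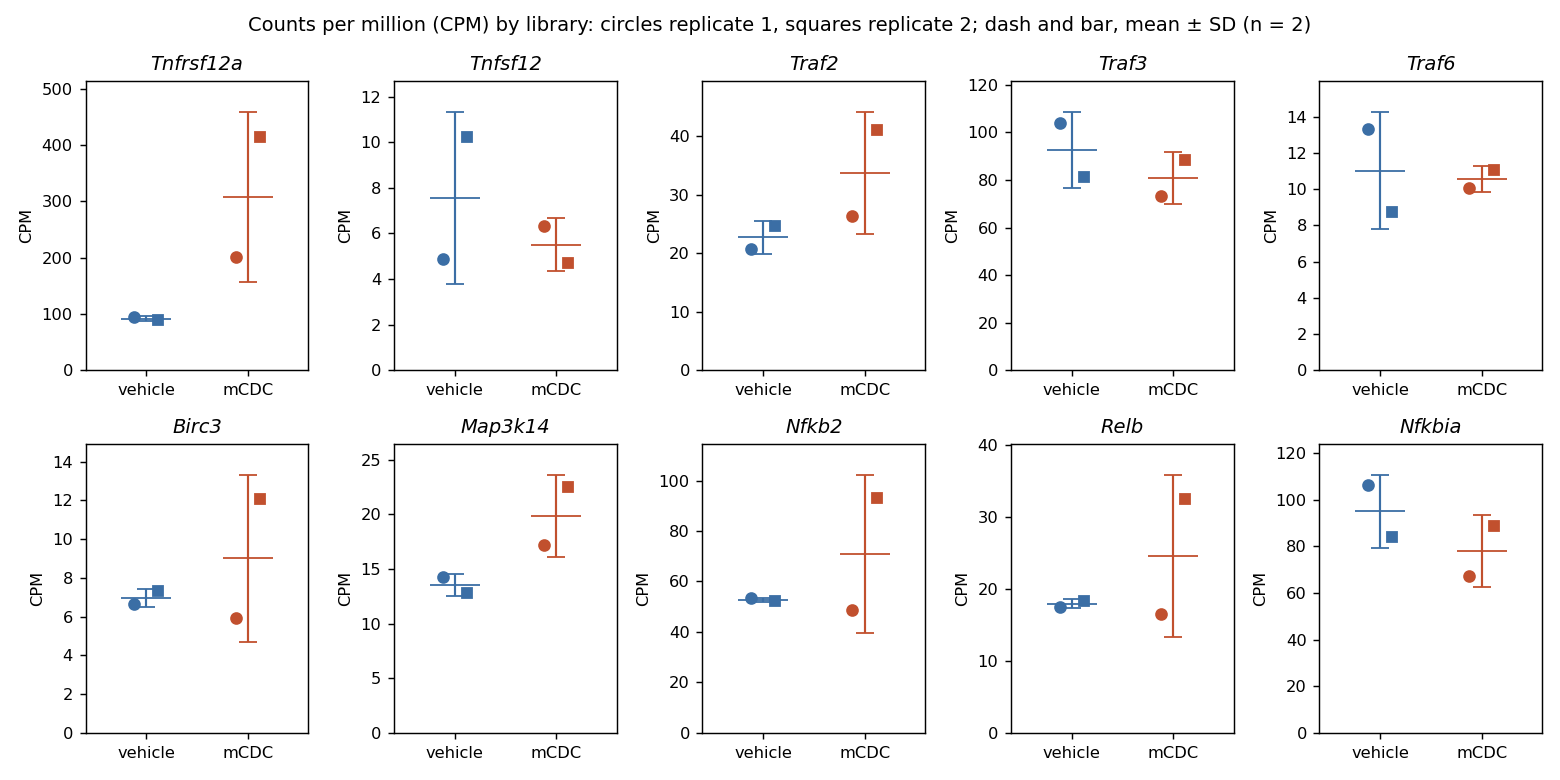
CPM of the 10 genes in each library, on axes that start at 0, with replicate 1 as a circle and replicate 2 as a square, and the group mean ± SD (n = 2). For Tnfrsf12a the mCDC samples, at 201 and 414 CPM, lie above the vehicle samples at 94.9 and 88.6, while for Nfkb2, Relb and Birc3 mCDC replicate 2 alone is high and mCDC replicate 1 is the lowest of the 4.

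The adaptors did not move as a group. TRAF2, which recruits the cIAP ligases, is the adaptor through which TRAF3 and NIK are brought to them. Traf2 (chr2:25517982-25546940, minus strand) was at 26.4 and 41.1 CPM in mCDC replicates 1 and 2 and at 20.8 and 24.7 CPM in vehicle replicates 1 and 2. Its groups did not overlap, but the gap between mCDC replicate 1 and vehicle replicate 2 was small beside the distance between the mCDC samples. The means were 33.7 ± 10.4 and 22.7 ± 2.8 CPM (SD, n = 2), with a log2 fold change of 0.57 (SE 0.22) that fell short of 1.5-fold and was 0.21 without mCDC replicate 2. It was 0.86 without mCDC replicate 1 and 0.70 without vehicle replicate 2.

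Traf3 (chr12:111166370-111267153, plus strand), whose product tethers NIK for destruction, was read at 73.1 and 88.6 CPM with mCDCs and at 104 and 81.2 CPM with vehicle. The groups overlapped, mCDC replicate 1 being lowest and vehicle replicate 1 highest, and the log2 fold change was -0.19 (SE 0.17). Traf6 (chr2:101678429-101701669, plus strand), the adaptor of the Toll-like and interleukin-1 receptors, had 10.1 and 11.1 CPM in mCDC and 13.3 and 8.73 CPM in vehicle muscles. The mCDC samples of Traf6 fell between the vehicle samples, and its log2 fold change was -0.06 (SE 0.23). Birc3 (chr9:7848699-7873186, minus strand) encodes cIAP2, a ubiquitin ligase that acts in the TRAF2 and TRAF3 complex and is itself an NF-kB target. It was at 5.95 and 12.1 CPM in mCDC replicates 1 and 2 and at 6.64 and 7.31 CPM in vehicle replicates 1 and 2. The groups overlapped, because mCDC replicate 1 was the lowest library and mCDC replicate 2 the highest. Its log2 fold change was 0.36 (SE 0.32) with all libraries, -0.23 without mCDC replicate 2 and 0.79 without mCDC replicate 1. Of the 31-base words of Birc3, 11.6% also occur in other genes, of which Gm7019 shares the most.

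Map3k14 (chr11:103219762-103267472, minus strand), which encodes the central kinase NIK, was higher in both mCDC samples than in both vehicle samples. Its level was 17.2 and 22.5 CPM in mCDC replicates 1 and 2 and 14.2 and 12.8 CPM in vehicle replicates 1 and 2. The 4 values kept apart by group with a narrow gap, and the means were 19.9 ± 3.8 and 13.5 ± 1.0 CPM (SD, n = 2). The log2 fold change was 0.55 (SE 0.19), below 1.5-fold, and it ran from 0.35 to 0.74 as each library was left out. Among the 10 members it was, with Tnfrsf12a and Traf2, 1 of 3 whose log2 fold change stayed above 0 without any of the 4 libraries.

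The transcription factor genes of the noncanonical branch were high in a single mCDC muscle. Nfkb2 (chr19:46304320-46312385, plus strand), which encodes p100 and p52, had 48.6 CPM in mCDC replicate 1, 93.1 in mCDC replicate 2, and 53.3 and 52.3 in vehicle replicates 1 and 2. Relb (chr7:19606217-19629438, minus strand), its nuclear partner, had 16.6 and 32.5 CPM in mCDC and 17.5 and 18.4 CPM in vehicle muscles. For both genes the vehicle samples almost coincided, mCDC replicate 1 lay just below them and mCDC replicate 2 lay well above, so the groups overlapped. The log2 fold changes were 0.42 (SE 0.27) for Nfkb2 and 0.45 (SE 0.29) for Relb. Leaving out mCDC replicate 2 gave log2 fold changes of -0.12 and -0.11, and leaving out mCDC replicate 1 gave 0.82 and 0.86. Of the 31-base words of Nfkb2, 16.3% also occur in other genes. The 2 mCDC samples differed on the log2 scale by 0.94 for Nfkb2, 0.97 for Relb and 1.01 for Birc3, and 4.04%, 3.66% and 3.27% of all genes tested differed more between those samples. Tnfrsf12a differed by 1.05 between them, a distance exceeded by 2.94% of genes.

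Nfkbia (chr12:55489410-55492647, minus strand), the IkBa inhibitor gene and a rapid target of canonical signalling, ran the other way. It had 67.3 and 88.9 CPM in mCDC replicates 1 and 2 and 106 and 84.0 CPM in vehicle replicates 1 and 2. The groups overlapped, with mCDC replicate 1 lowest and vehicle replicate 1 highest, and the log2 fold change was -0.28 (SE 0.18). It stayed below 0 with each library left out, from -0.50 to -0.10. Traf3 likewise stayed below 0, from -0.36 to -0.0018.

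**Figure D2:**
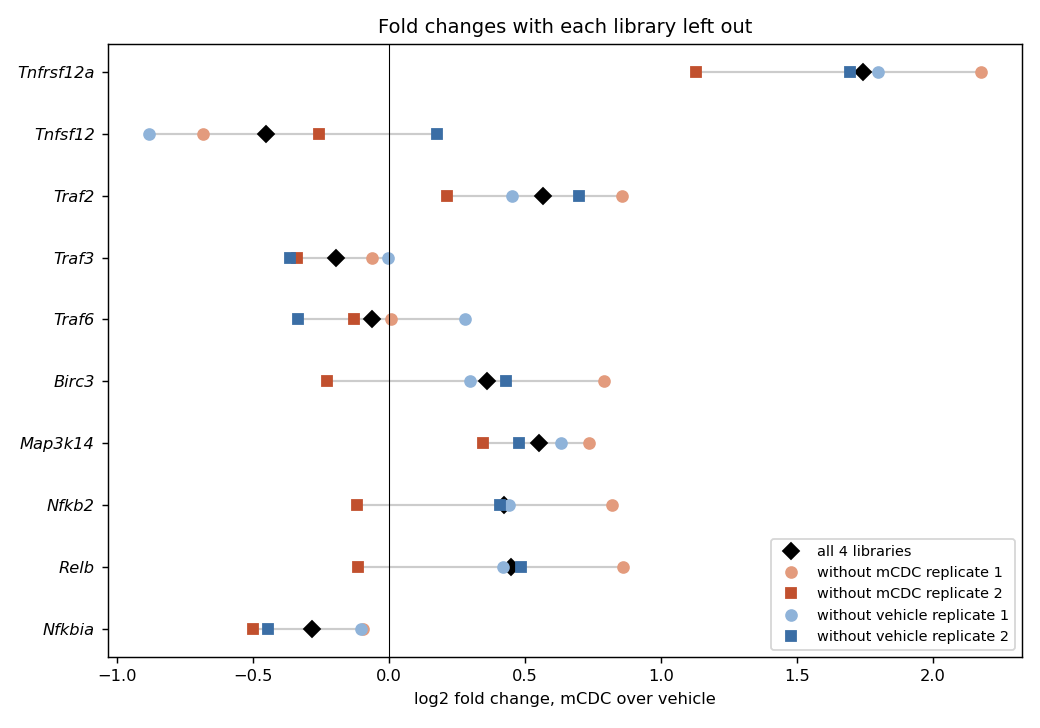
Log2 fold change of mCDC over vehicle for each of the 10 genes with all 4 libraries (diamonds) and with 1 of the libraries removed (circles, replicate 1; squares, replicate 2). Nfkb2, Relb and Birc3 cross 0 without mCDC replicate 2, Tnfsf12 without vehicle replicate 2 and Traf6 without mCDC replicate 1 or vehicle replicate 1, while Tnfrsf12a stays between 1.13 and 2.18.

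Levels of different genes were compared per length, as CPM per kilobase of the median coding transcript in the GENCODE annotation of GRCm38. Tnfrsf12a was highest in every library, at 426 ± 209 CPM per kilobase (SD, n = 2) in mCDC and 127 ± 6.2 in vehicle muscles. Nfkbia came next, with 49.5 ± 9.7 and 60.3 ± 9.9 CPM per kilobase, then Nfkb2 with 22.6 ± 10.03 and 16.8 ± 0.2. The ranges of these 3 genes over the 4 libraries did not overlap one another or that of Traf3, the next gene. That of Nfkb2, down to 15.5 in mCDC replicate 1, did overlap that of Traf2, up to 15.8 in mCDC replicate 2. Traf3, Traf2, Relb and Tnfsf12 followed, with means over the 4 libraries of 12.5, 10.9, 9.65 and 7.40 CPM per kilobase, and each of these overlapped its neighbour in the order. Birc3 and Map3k14 had 4.62 and 3.93 CPM per kilobase and overlapped as well, and Traf6 was lowest at 1.75, below both of them in every library. The receptor transcript thus exceeded the ligand transcript per length, at 127 ± 6.2 against 8.55 ± 4.28 CPM per kilobase in vehicle muscles. Whether the ligand reaches the muscle as protein from other sources was not measured.

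**Figure D3:**
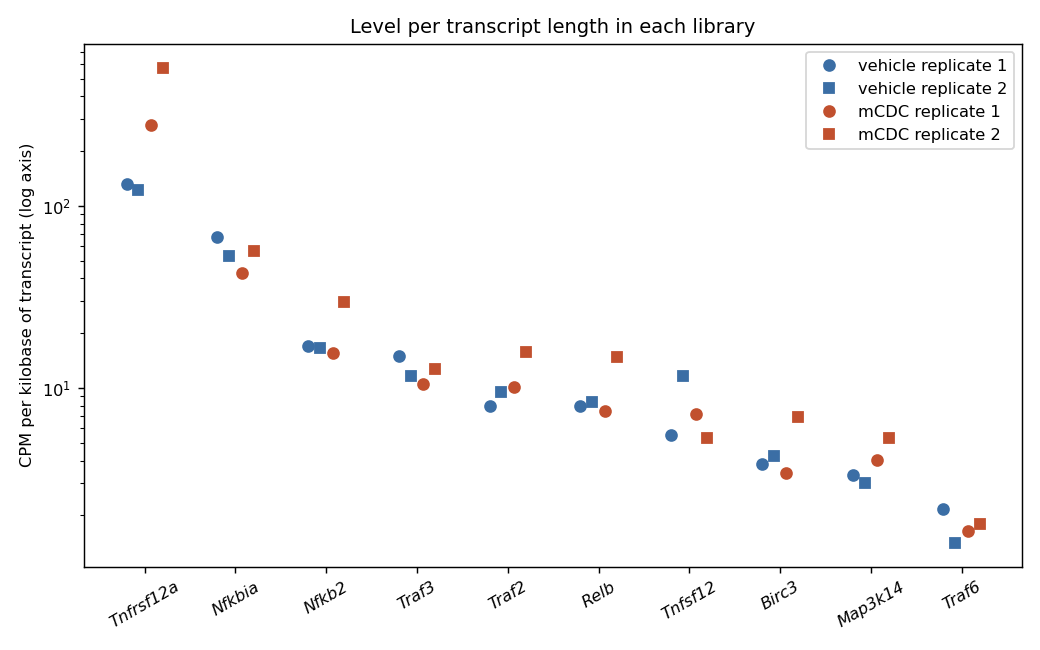
CPM per kilobase of transcript for the 10 genes on a log axis, ordered by their mean over the 4 libraries, with colours for the groups and circles and squares for replicates 1 and 2. Tnfrsf12a (122.7 to 574) lies above Nfkbia (42.65 to 67.3) in every library and Traf6 (1.42 to 2.16) lies lowest.

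Over the 10 members, 6 log2 fold changes were above 0 and 4 below, with a median of 0.39, where the median over all genes tested was -0.0094 and 48.4% were above 0. Tnfrsf12a was the only member called, beside 1.26% of all genes tested that were called higher and 2.74% called lower. The mCDC samples lay both above the vehicle samples for 3 members (Tnfrsf12a, Traf2 and Map3k14) and both below for 0, beside 19.2% and 19.5% of all genes tested, and the groups of 38.7% of all genes did not overlap. Since the members were chosen with this contrast known, nothing is read from these counts. By library, 6 of the 10 members were highest in mCDC replicate 2, which was the highest library for 28% of all genes tested, and 5 were lowest in mCDC replicate 1, the lowest library for 17.7% of them. Leaving out mCDC replicate 2 gave a median over the members of -0.12 with 3 of them above 0, and leaving out mCDC replicate 1 gave 0.76 with 7 above 0. The number of members called was 6 when mCDC replicate 1 was left out, 3 for vehicle replicate 1, 2 for vehicle replicate 2 and 1 for mCDC replicate 2, beside 6.73%, 7.92%, 4.1% and 2.49% of all genes tested in those fits.

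**Figure D4:**
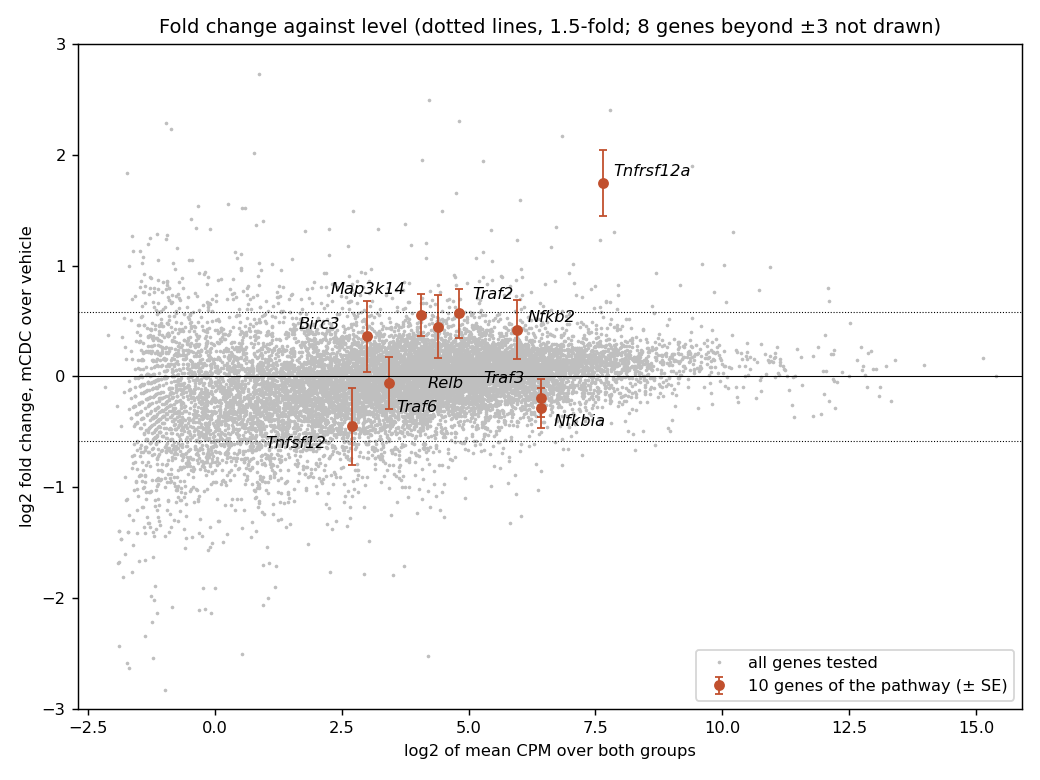
Log2 fold change of mCDC over vehicle against the log2 of the mean CPM for all 13652 genes tested (grey) and for the 10 genes (orange, ± SE), with dotted lines at 1.5-fold and 8 genes beyond the axis limit of 3 left undrawn. Tnfrsf12a, at 1.74, is the only one of the 10 outside the dotted lines.

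The rest of the pathway was examined with 6 lists that leave the members out. In these and later lists, the most abundant genes are those with the highest CPM, whatever their length. Together the 6 lists named 109 genes, 77 of which were tested. Of these, 2 were called higher and 2 lower, or 5.19% beside 4.0% of all genes tested. The median log2 fold change over the 77 was -0.0040. Without mCDC replicate 1 or without vehicle replicate 1, 8 of these genes were called, beside 6.73% and 7.92% of all genes tested in those fits. Without mCDC replicate 2, 2 were called beside 2.49%, and without vehicle replicate 2, 6 beside 4.1%.

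Both genes called higher were receptors of the TNF family, for which 17 of 26 were tested with a median log2 fold change of 0.059. Relt, a TNF family receptor found in lymphoid tissue, was at 28.8 and 39.6 CPM in mCDC replicates 1 and 2 and at 18.2 and 18.1 CPM in vehicle replicates 1 and 2. Both mCDC samples lay above both vehicle samples, with a log2 fold change of 0.91 (SE 0.19) and an edgeR quasi-likelihood adjusted p of 0.462, and the call held with each library left out. Tnfrsf23, a mouse decoy receptor for TRAIL, was at 21.2 and 33.2 CPM in mCDC and 17.6 and 14.5 CPM in vehicle muscles, or 0.76 (SE 0.23) on the log2 scale, with an edgeR quasi-likelihood adjusted p of 0.635. Its call was lost without mCDC replicate 2, at 0.41, and without vehicle replicate 2, at 0.62. The most abundant receptors on the list, Tnfrsf1a for TNF and Ltbr for lymphotoxin, a classical entry to the noncanonical branch, had log2 fold changes of 0.28 and 0.21 and were not called. Of the 4 ligands tested among 17, 0 were called in either direction, with a median of -0.59. Tnfsf10, which encodes TRAIL, had the highest level among them and a log2 fold change of -0.70 (SE 0.36), while Eda had -0.48 and Tnfsf13 -0.74. Tnfsf10 was called without vehicle replicate 1, at -1.14, and was -0.05 without vehicle replicate 2. Tnfsf13 was called without mCDC replicate 1, at -2.06, and was -0.12 without mCDC replicate 2. Tnfsf13b, which encodes the B cell factor BAFF and is named after its value was seen, had the only value above 0, 0.43 (SE 0.50). Tnf itself had 5 counts in vehicle replicate 2 and 0 in the other 3 libraries, and 5 ligands had 0 counts in all 4, which allows up to 0.109 to 0.137 CPM per library, a limit that covers counting error only.

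Among 19 adaptors, ligases and deubiquitinases of the TRAF complexes, all 19 were tested and 0 were called, with a median of -0.0040. Birc2, which encodes cIAP1, the partner of cIAP2, had 22.7 and 22.8 CPM in mCDC and 23.8 and 24.0 CPM in vehicle muscles, a range narrower than that of Birc3. Otud7b, a deubiquitinase of TRAF3, and Tnip1, a binding partner of the ubiquitin editor A20, were the most abundant, with log2 fold changes of -0.15 and 0.11. Tnfaip3, which encodes A20 and is a target of canonical signalling, had 0.09 (SE 0.27), and Traf1 had the largest difference, -1.04 (SE 0.51), at about 1 CPM or less in each library. Traf1 was called without vehicle replicate 1, at -1.39, and was -0.56 without vehicle replicate 2. Tnip1 turned to -0.06 without mCDC replicate 2, and Tnfaip3 to -0.09 without it and to -0.18 without vehicle replicate 1.

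Of 19 genes for NF-kB subunits, IkB proteins and the IKK complex, 18 were tested and 0 were called, with a median log2 fold change of 0.024. Rela and Nfkb1, the canonical subunits, had log2 fold changes of 0.30 (SE 0.16) and 0.13 (SE 0.14), and Chuk, which encodes the IKKa kinase that acts downstream of NIK, had -0.17 (SE 0.16). Tab2 and Map3k7, of the TAK1 complex, were the most abundant and had -0.10 and -0.15, and Ikbke had the largest difference, -0.84 (SE 0.41). Ikbke was called without vehicle replicate 1, at -1.11, and was -0.51 without vehicle replicate 2, and Tab2 turned to 0.02 without mCDC replicate 2 and to 0.11 without vehicle replicate 1. Of 21 target genes of NF-kB, 12 were tested and 0 were called, with a median of -0.13. The most abundant were Sod2, the mitochondrial superoxide dismutase, at 0.15 (SE 0.13), and Tnfaip2, at 0.33 (SE 0.24). Tnfaip2 was -0.08 without mCDC replicate 1 and was called, at 0.65, without mCDC replicate 2. The chemokine gene Cxcl10 had the largest difference, 1.24 (SE 0.64), at 0.45 and 1.0 CPM in mCDC and 0.19 and 0.40 CPM in vehicle muscles, and those groups did not overlap. It was called with the likelihood ratio test and, at 1.74, without mCDC replicate 1, and was 0.60 without mCDC replicate 2.

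**Figure D5:**
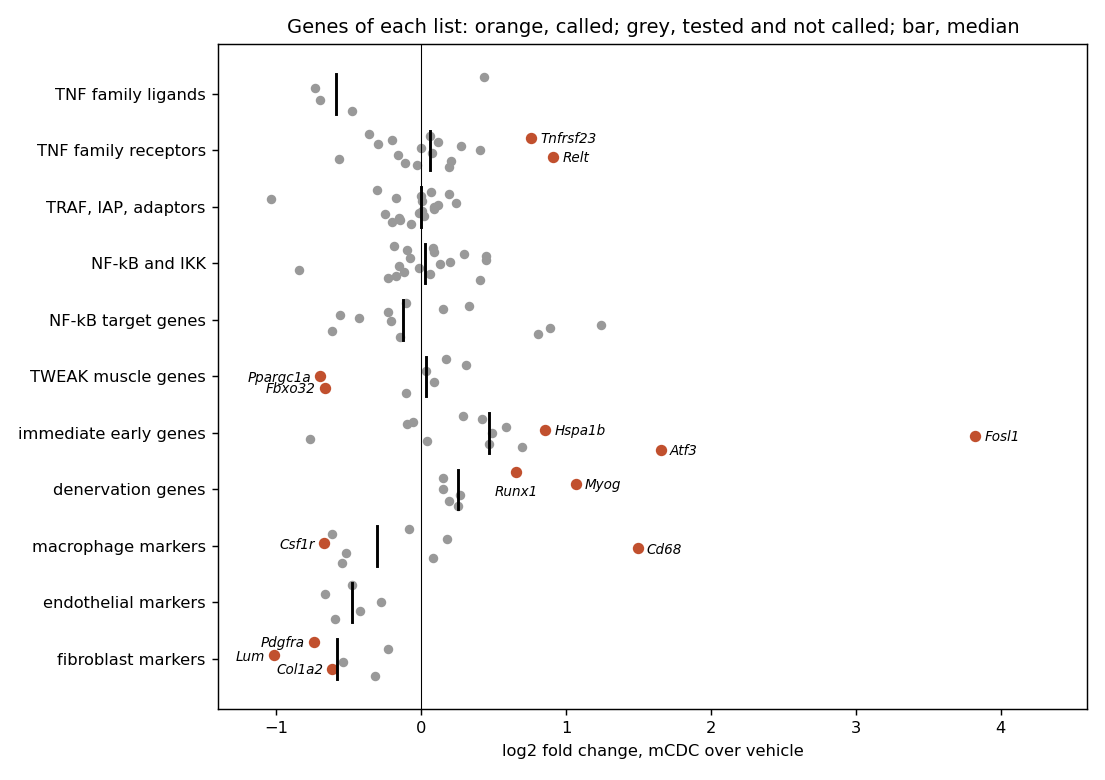
Log2 fold change of mCDC over vehicle for the tested genes of 11 lists, with called genes in orange and named, other tested genes in grey, and the median of each list as a bar. Relt and Tnfrsf23 are the called genes of the TNF receptor list at 0.91 and 0.76, and no gene of the lists of adaptors, NF-kB subunits or target genes was called.

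The genes that TWEAK is known to regulate in muscle were 8, of which 7 were tested and 2 were called, both lower, beside 2.74% of all genes tested that were called lower. Ppargc1a, the PGC-1a coactivator of mitochondrial genes that TWEAK lowers in cultured and transgenic muscle, was at 35.7 and 29.6 CPM in mCDC and 60.3 and 45.6 CPM in vehicle muscles. Fbxo32, the atrophy ubiquitin ligase atrogin-1, was at 271 and 211 CPM in mCDC and 426 and 340 CPM in vehicle muscles. For both genes every mCDC sample was below every vehicle sample, with log2 fold changes of -0.70 (SE 0.18) and -0.67 (SE 0.18), and edgeR's quasi-likelihood adjusted p was 0.612 for each. The calls of both were lost without mCDC replicate 2, at -0.57 for Ppargc1a and -0.50 for Fbxo32, and without vehicle replicate 1, at -0.48 and -0.49. Trim63, the atrophy ligase MuRF1 that TWEAK induces in cultured myotubes, had 155 and 157 CPM in mCDC and 151 and 125 CPM in vehicle muscles, and its log2 fold change of 0.17 (SE 0.14) was not called. Trim63 is named after its values were seen. Sqstm1 and Hk2, the most abundant of the list, had 0.31 (SE 0.17) and 0.09 (SE 0.17), and Hk2 was -0.12 without mCDC replicate 2.

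The genes whose pattern over the 4 libraries was closest to that of Tnfrsf12a, by Euclidean distance between centred log2 CPM, were Hbegf, Tuba1c, Atf3, Dct and Tubb6, at distances of 0.28, 0.31, 0.36, 0.49 and 0.52. Hbegf, a growth factor of the EGF family, had 19.4 and 34.4 CPM in mCDC and 7.17 and 6.66 CPM in vehicle muscles. Tuba1c and Tubb6 encode tubulins, and Tubb6 had 84.8 and 219 CPM in mCDC and 59.5 and 59.7 CPM in vehicle muscles. Atf3, a stress-induced transcription factor, had 21.6 and 60.0 CPM in mCDC and 14.0 and 11.8 CPM in vehicle muscles. In all 5, as for Tnfrsf12a, mCDC replicate 2 was highest and mCDC replicate 1 next. All 5 were called higher, with log2 fold changes of 1.96, 1.5, 1.65, 2.29 and 1.35 in the order above. Without mCDC replicate 2 these were 1.49, 0.77, 0.74, 1.63 and 0.51, and Dct and Tubb6 were no longer called. Dct, a melanocyte enzyme gene, rested on 3 to 26 counts per library and was not called without vehicle replicate 2 either, at 1.85. With 4 libraries this order is a description, and these genes were picked for it. Among the members, Map3k14 was closest in shape, with a Pearson correlation of 0.990 to Tnfrsf12a over the same 4 libraries, and Nfkb2 and Relb correlated with each other at 0.996.

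Immediate early and denervation genes were measured beside the receptor, since Fn14 is known as an early response gene that denervation induces. Of 13 immediate early and heat shock genes, all tested, 3 were called higher, Fosl1, Atf3 and Hspa1b, and 0 lower, beside 1.26% and 2.74% of all genes tested, and the median log2 fold change was 0.47. Fosl1, an AP-1 subunit, had 0.95 and 3.52 CPM in mCDC and 0.15 and 0.15 CPM in vehicle muscles. Its call held with each library left out, from 2.63 to 4.52 on the log2 scale. Each vehicle library held only 4.26 expected counts of Fosl1, which did not pass the alternative filter of 10 counts in every library. The call of Hspa1b was lost without vehicle replicate 2, at 0.58, and its reads may be split with its near-identical copy Hspa1a. Hspa1a had a log2 fold change of 0.49 (SE 0.21) and was not called. It ran from 0.23 without vehicle replicate 2 to 0.82 without vehicle replicate 1. Jun, the most abundant of the list, had a log2 fold change of -0.05, which was 0.23 without mCDC replicate 2 and 0.17 without vehicle replicate 1. The summed level of this list, heat shock genes included, was 716 and 756 CPM in mCDC and 567 and 527 CPM in vehicle muscles. Within it, Hspa1a had 194.9 and 152.5 CPM in mCDC and 148.4 and 98.6 CPM in vehicle muscles. Hspa1b had 134.7 and 134.7 CPM in mCDC and 90.2 and 58.5 CPM in vehicle muscles. Of the 13 log2 fold changes, 10 were above 0 and 3 below. Of the 7 denervation genes reported here, 2 were called higher, Myog and Runx1, beside 1.26% of all genes tested, and both calls were lost without mCDC replicate 2, at 0.51 and 0.26. The call of Runx1 was also lost without vehicle replicate 2, at 0.44, with library totals, at 0.58, and with the replicate block, at 0.63. The summed level of these 7 genes was 317 and 368 CPM in mCDC and 284 and 266 CPM in vehicle muscles. The part of handling or denervation in the level of Tnfrsf12a was not tested.

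Of 8 macrophage markers, all tested, Cd68 was called higher and Csf1r lower, beside 1.26% and 2.74% of all genes tested, and the summed level of the 8 was 40.9 and 48.1 CPM in mCDC and 35.1 and 60.0 CPM in vehicle muscles, which overlapped. Cd68 was at 15.4 CPM in mCDC replicate 2 against 2.71 to 4.15 CPM in the other 3 libraries, and its log2 fold change of 1.49 was 0.27 and not called without mCDC replicate 2. That call was also lost without either vehicle replicate, at 1.23 and 1.84, and with DESeq2. Csf1r had a log2 fold change of -0.67, not called without mCDC replicate 2, at -0.50, or without vehicle replicate 2, at -0.30, nor with DESeq2, thinned counts, the replicate block or no filter on low counts. Cd163, the macrophage scavenger receptor that binds TWEAK, had 2.88 and 2.28 CPM in mCDC and 4.50 and 2.95 CPM in vehicle muscles, and its log2 fold change of -0.52 (SE 0.30) was not called. It was -0.80 and called without vehicle replicate 2, and -0.18 without vehicle replicate 1. Lyz2 and C1qa, the most abundant of the 8, had -0.62 (SE 0.36) and 0.08 (SE 0.28) and were not called. Lyz2 was -1.10 without vehicle replicate 1 and 0.13 without vehicle replicate 2. C1qa was -0.28 without vehicle replicate 1 and 0.57 without vehicle replicate 2. Of 5 endothelial markers 0 were called, and all 5 had log2 fold changes below 0 with all 4 libraries, with a median of -0.48. Pecam1, at -0.67, passed the calling rule with DESeq2, with the likelihood ratio test, without mCDC replicate 1, at -0.82, and without vehicle replicate 1, at -1.09, and was -0.05 without vehicle replicate 2. Cdh5, at -0.59, was called without mCDC replicate 1, at -0.86, and without vehicle replicate 1, at -1.05, and turned to 0.085 without vehicle replicate 2. Of 6 fibroblast markers 3 were called lower (Lum, Col1a2 and Pdgfra), beside 2.74% of all genes tested, and of 4 satellite cell markers tested Pax7 was called higher, beside 1.26%. The fibroblast calls were lost without vehicle replicate 2, at -0.47, -0.31 and -0.23, those of Col1a2 and Pdgfra also without mCDC replicate 2, at -0.54 and -0.57, and that of Pax7 without either mCDC replicate or vehicle replicate 2, at 0.65 to 0.79. With the replicate block, at -0.69, and with no filter on low counts, at -0.74, Pdgfra was not called, and with DESeq2 Pax7 was not, at 0.77. Dcn, the most abundant fibroblast marker, had -0.54 (SE 0.24) and was not called, but was with library totals, at -0.63. It was -0.88 without vehicle replicate 1 and -0.09 without vehicle replicate 2. Summed satellite cell markers were 52.7 and 49.4 CPM in mCDC and 43.0 and 43.8 CPM in vehicle muscles. Most of that sum was Cdh15, at 46.6 and 43.5 CPM in mCDC and 38.0 and 39.3 CPM in vehicle muscles. Its log2 fold change of 0.22 (SE 0.14) was not called. Myf5 and Megf10, named after their values were seen, had 0.03 and -0.08, with overlapping groups. Of 7 lymphocyte markers only Cd8a was tested, Ms4a1 had 0 counts, and the summed level was 0.95 to 1.48 CPM. Of 6 regenerating fibre genes, all tested, only Myog was called, higher, beside 1.26% of all genes tested. That call was lost without mCDC replicate 2, at 0.51. Myh3, the embryonic myosin, had a log2 fold change of -0.15. The part of these cells in the levels of the 10 genes was not tested.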

How the data were processed

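Soleus RNA of 2 mCDC and 2 vehicle *mdx* muscles was sequenced as single-end reads. The authors aligned them with Bowtie 2 against UCSC transcripts (Bowtie2 2.1.0, build mm10, per the submitters' processing notes) and deposited RSEM (1.2.15) expected counts per gene without normalization. The study's methods and the sample records name different library kits, and whether reads were counted by strand is not given in the sources used here. After rounding, edgeR 4.0.16 (R 4.3.3) was run over all genes with filterByExpr, TMM and the quasi-likelihood test (legacy = FALSE), with Benjamini-Hochberg adjustment. Calls used the study's thresholds (1.5-fold, unadjusted p of 0.05). Standard errors come from the fold change and its F statistic, and log2 CPM used a prior count of 2. The depth of 22481391 to 27187425 counts per library limits precision for genes at a few counts.

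The members and the gene lists were chosen with earlier results of these data known, so the members have no p-values and no gene list was tested as a set. Named genes were the members, called list genes, 7 genes named by role and the 5 genes closest to Tnfrsf12a. Also named were the 2 most abundant genes of each list, ranked by CPM without length, and the gene with its largest difference. Not all of their values are printed above. Adgre1, Mymk and Mymx were matched by older symbols, and 1 gene of the denervation list is not reported here. Alternatives were DESeq2 1.42.0 and other scalings, filters and tests, thinned counts, the replicate number as a block, and each library left out. The procedure was tested on simulated data. Gene models came from GENCODE M21 and promoters from RefSeq, both on GRCm38, the assembly that mm10 names.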

Additional observations from a re-analysis of the deposited data

How the results depend on the processing

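The log2 fold changes of the 10 members kept their direction under all 8 other settings with 4 libraries (other scalings, filters, tests, thinning and the block), in 80 values with 0 changes of direction, and Tnfrsf12a ran from 1.65 to 1.76. With 1 library left out, 5 of the 10 members changed direction in 6 of 40 values. The median over the members, 0.39, ran from -0.12 to 0.76 with 1 library left out, the lowest without mCDC replicate 2 and the highest without mCDC replicate 1. The number of genes called, 546, ran from 348 without mCDC replicate 2 to 1107 without vehicle replicate 1, with 941 without mCDC replicate 1, and the number called on the 6 pathway lists, 4, ran from 2 to 8. The cause of these changes was not tested. In such fits the lone sample of a group is assumed to vary like the other group. Of the 56 other named genes, 2 changed direction under another setting and 11 with a library left out, none of which was called with all libraries. Without the filter on low counts 673 genes were called, and with DESeq2 427.

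The labels give both groups replicate numbers 1 and 2 without saying what they share, and same-numbered samples did not deviate together from their group means (correlation across 13652 genes of -0.039). With the replicate number as a block, 480 genes were called, Tnfrsf12a was still the 1 member called, and the median over the members was 0.32. Groups of 2 allow no check for an outlying sample, and depth limits what can be said of genes such as Tnf, with 5 counts in all.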
